A study of Mus musculus with 6 samples.

Results

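The Hox genes encode homeodomain transcription factors, and 38 of the 39 protein-coding Hox genes of the HoxA, HoxB, HoxC and HoxD clusters are described here, out of 55291 gene rows. The rule that picks them uses name and biotype and no measured value. The skin came from C57BL/6 mice killed at day 40 of age, in 3 wild-type libraries (replicates 1 to 3) and 3 libraries labelled Tsk (replicates 4 to 6). Tsk, or tight skin, is a mutation of fibrillin 1 (Fbn1), which the series' design text writes as Fbn1+/-, and no treatment is given for either group. RNA was taken from rectangular pieces of shaved dorsal skin, so epidermis, hair follicles, dermis, fat and underlying muscle were measured together. The labels do not give the position of each piece along the back. They also do not say whether replicates came from separate animals or litters, so the p-values measure only the spread between these 6 libraries.

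Hox genes lie side by side in 4 clusters, in the order in which they are switched on along the head-to-tail axis of the embryo. Genes at one end (low paralogue numbers) act in the head and neck, and genes at the other end (high numbers) act in the lumbar, sacral and tail regions. Adult skin fibroblasts keep much of this pattern, so the set of Hox genes a piece of skin expresses reflects the place on the body from which it came. Paralogues are members with the same number in different clusters, and they are grouped here as anterior (1 to 4), central (5 to 8) and posterior (9 to 13). Polycomb proteins keep Hox genes silent and trithorax-type proteins keep them active, while Pbx, Meis and Pknox proteins bind DNA together with Hox proteins.

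The libraries held 17561453 to 19219814 counts. Values are given as CPM, here counts scaled to a common library total after TMM adjustment, which allows for a few very abundant genes taking up a different share of each library. Fbn1 stood at 260.6, 351.2 and 296.0 CPM in wild-type skin and at 1450, 2053 and 1781 in Tsk, so the libraries labelled Tsk were all above the others. Fbn1 lies on chromosome 2, as does the HoxD cluster, 50.5 Mb away. The tissue was not the same in all libraries. The 20 skeletal muscle markers summed to 17.4, 31.6 and 27.8% of the scaled total in wild-type skin and to 16.6, 14.9 and 13.6% in Tsk. The 12 fibroblast markers summed to 0.63, 1.05 and 1.10% in wild-type skin and to 1.99, 1.86 and 4.26% in Tsk, and 2 of them, Dpt and Pi16, were called higher by edgeR (9 with library totals in place of TMM, 8 with DESeq2 and 0 without wild-type replicate 3). All 12 keratinocyte markers passed the filter on low counts, and they summed to 0.432 to 0.811% of the scaled total. Ucp1, the brown fat uncoupling protein, had 1536 counts in Tsk replicate 5 and 0 to 2 in the other libraries. Tsk replicate 6 stood apart in its Hox genes, and values without it are given beside the results that rest on it. In these bulk samples, fewer cells of a type and less RNA per cell cannot be told apart.

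Of the 38 Hox genes, 26 had enough counts to be tested among 19971 genes. Hoxc8 alone passed the edgeR quasi-likelihood test at an adjusted p under 0.05, as higher in Tsk, and no Hox gene passed as lower. Among all genes tested, 2.72% were called higher and 0.696% lower (3.42% in either direction). Unadjusted p-values under 0.05 were found for 4 Hox genes, Hoxc8 and Hoxd4 on the higher side and Hoxa5 and Hoxd9 on the lower, against 20.1% of all genes. No Hox gene was called lower by DESeq2 or limma-voom either. The log2 fold changes ran from -0.62 to 1.49, with a median of 0.04 beside -0.03 for all genes tested. They were above 0 for 17 of the 26 genes, for 20 when library totals replaced TMM, for 11 without Tsk replicate 6 and for 9 with a skeletal muscle score in the fit, so the direction of the family as a whole was not stable.

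**Figure D1:**
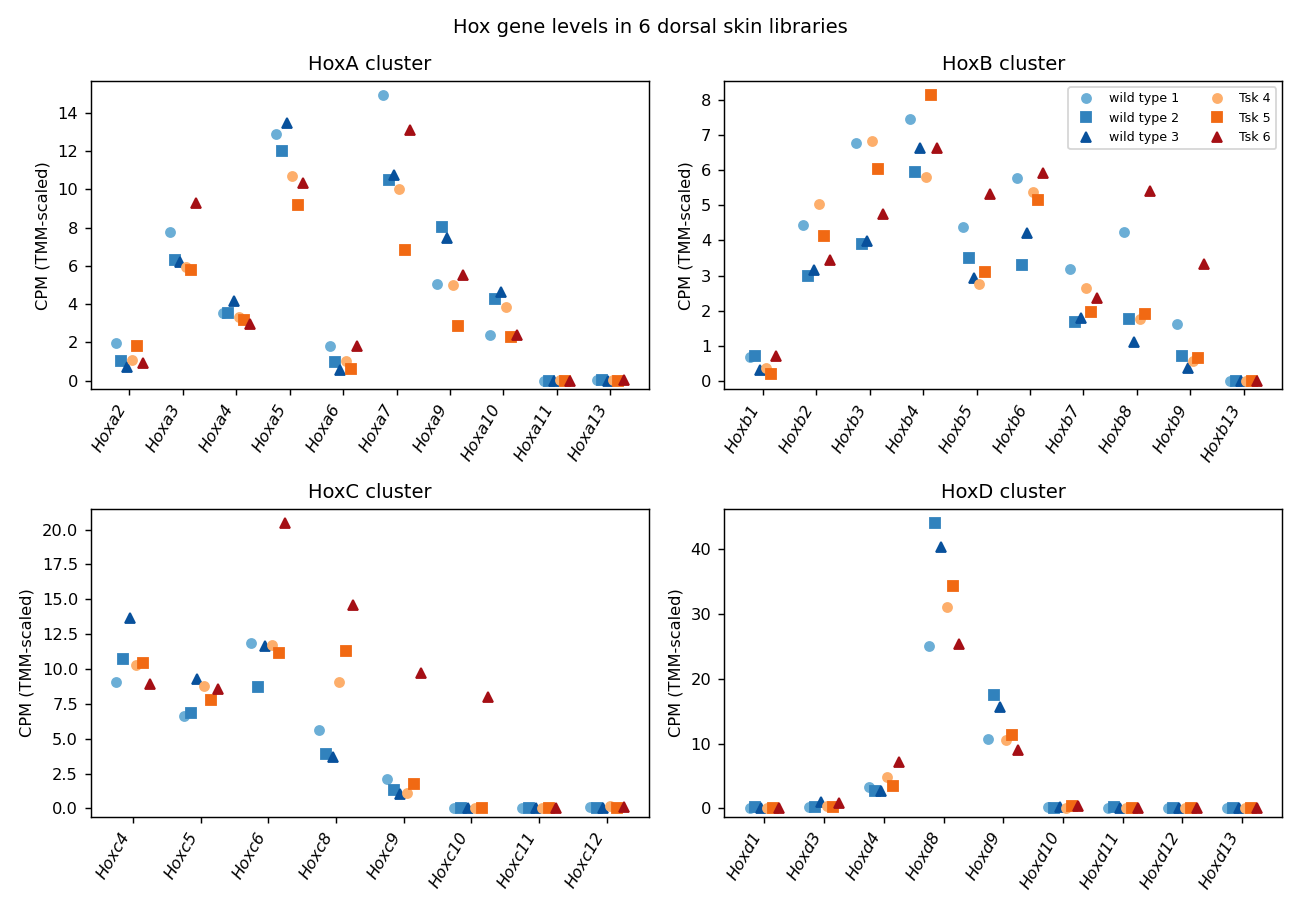
CPM (TMM-scaled, vertical axis) of 37 Hox genes in each of the 6 libraries, 1 panel per cluster with genes ordered by paralogue number. Hoxd8 stands highest, at 25.1 to 44.0 CPM, and Hoxc10 is seen in Tsk replicate 6 alone.

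Dorsal skin expressed anterior and central Hox genes and few of the most posterior ones. Scaled to exon length, Hoxd8 was the most abundant in both groups, at 13.3 ± 3.65 CPM per kilobase in wild-type skin and 11.03 ± 1.64 in Tsk (SD, n = 3 each). Hoxd9 (6.84 ± 1.66) and Hoxa5 (6.82 ± 0.401) came next in wild-type skin and did not differ beyond their spread. Hoxc6 (4.46 ± 0.740), Hoxc4 (4.34 ± 0.908) and Hoxa7 (4.19 ± 0.863 CPM per kilobase) followed, again within each other's spread. Hoxb1 was the lowest tested, at 0.243 ± 0.0949 CPM per kilobase. Hoxc8 ranked 11th in wild type (1.55 ± 0.378) and 5th in Tsk (4.12 ± 0.979 CPM per kilobase).

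The 12 Hox genes below the filter were mostly posterior. Hoxb13, Hoxd12 and Hoxd13 had 0 counts in all 6 libraries, where 3 counts in a library, 0.140 to 0.194 CPM, is the limit that a count of 0 allows. Hoxa11 and Hoxc11 had 1 count in all, Hoxa13 and Hoxd1 had 4, Hoxd11 had 8 and Hoxc12 had 9. Hoxd10 had 24 counts and Hoxd3 had 53, both spread over all 6 libraries. Hoxc10, with 170 counts in a single library, is described with the posterior genes. Paralogue 13 genes, which are known for the tail, digits and genital region, were thus at 0 to 4 counts among the 3 members with that number.

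Summed by position with TMM, the classes overlapped between the 2 groups, but for the central and posterior genes this rested on Tsk replicate 6. The anterior genes summed to 43.2 ± 3.96 CPM in wild-type skin and 45.5 ± 1.17 in Tsk (SD, n = 3 each). The central genes summed to 96.4, 97.1 and 99.8 CPM in wild-type skin and to 94.9, 93.3 and 113.3 in Tsk, and the posterior genes to 22.3, 32.3 and 29.4 and to 21.5, 19.4 and 38.5. Tsk replicate 6 was the highest of the 6 libraries in both classes, and without it both sums, and that of all 38 genes, were lower in Tsk without overlap.

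Without Tsk replicate 6, the direction of the central sum and of that of all 38 genes also turned with the scaling. The posterior sums overlapped with library totals, with or without that library. The anterior sums with library totals were 48.06, 32.1 and 38.5 CPM in wild-type skin and 48.06, 49.5 and 52.7 in Tsk. Wild-type replicate 1 and Tsk replicate 4 were equal there as rounded, and the other Tsk libraries were above every wild-type library. With library totals in place of TMM, the central genes summed to 98.7, 79.8 and 88.3 CPM in wild-type skin and to 100.7, 103.8 and 127.6 in Tsk, higher without overlap also when Tsk replicate 6 is left out. By cluster, the HoxC sums with TMM did not overlap. They were 35.4, 31.5 and 39.4 CPM in wild-type skin and 41.2, 42.5 and 70.4 in Tsk. That separation with TMM rested on Hoxc8. Without it, the other HoxC sums overlapped, at 29.8, 27.6 and 35.7 CPM in wild-type skin and 32.1, 31.1 and 55.8 in Tsk. With library totals they did not overlap, at 30.5, 22.7 and 31.6 CPM in wild-type skin and 34.04, 34.65 and 62.8 in Tsk. This held without Tsk replicate 6 too. HoxB and HoxD sums overlapped with TMM. HoxA sums with TMM were 52.08, 47.56 and 49.07 CPM in wild-type skin and 42.46, 33.52 and 47.57 in Tsk. With TMM they overlapped only through Tsk replicate 6, and HoxA sums with library totals are not given here.

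Among the anterior genes, none of 10 tested was called by edgeR, DESeq2 or limma-voom, and 1, Hoxd4, had an unadjusted p under 0.05. Hoxd4, a regulator of the hindbrain and neck vertebrae, stood at 3.34, 2.66 and 2.67 CPM in wild-type skin and at 4.87, 3.46 and 7.20 in Tsk. Every Tsk library was above every wild-type library, by little for Tsk replicate 5. The log2 fold change was 0.84 ± 0.29 (SE, unadjusted p = 0.0178, edgeR adjusted p = 0.151), and it was 0.52 without Tsk replicate 6. Hoxd4 (chr2:74711929-74729160, plus strand, mm10) shares 388 bases of exon with Hoxd3 on its own strand and 347 with Hoxd3os1 on the other, and the strand setting of the counting is not given in the sources used here, so its level is uncertain.

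Hoxc4, the last gene of its cluster on the anterior side, stood at 9.07, 10.7 and 13.7 CPM in wild-type skin and at 10.3, 10.4 and 8.89 in Tsk. The groups overlapped, and the log2 fold change of -0.18 ± 0.18 (edgeR adjusted p = 0.647) turned to 0.11 with library totals. Hoxb4, which acts in blood stem cells among other places, was at 7.46, 5.96 and 6.65 CPM in wild-type skin and at 5.81, 8.14 and 6.64 in Tsk. Its groups overlapped too (0.04 ± 0.19, adjusted p = 0.943). Hoxa3, needed for the thymus and parathyroid, was at 7.79, 6.29 and 6.21 CPM in wild-type skin and at 5.96, 5.80 and 9.27 in Tsk, with Tsk replicate 6 the highest of all (0.05 ± 0.23, adjusted p = 0.931).

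Hoxa4 was slightly lower in all 3 Tsk libraries, at 3.56, 3.56 and 4.16 CPM in wild-type skin and at 3.32, 3.18 and 2.97 in Tsk. The log2 fold change of -0.25 ± 0.19 did not pass the test (edgeR adjusted p = 0.512) and turned to 0.02 with library totals. Hoxa2, Hoxb1, Hoxb2 and Hoxb3 had overlapping groups, with log2 fold changes from -0.42 (Hoxb1) to 0.26 (Hoxb3). In all, 2 Hox genes had groups that did not overlap with Tsk higher (Hoxc8 and Hoxd4, against 14.1% of all genes tested) and 2 with Tsk lower (Hoxa4 and Hoxa5, against 10.6%). With library totals in place of TMM these counts were 4 and 0.

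Hoxc8 was the Hox gene called between the groups. It belongs to the trunk-level central class, and it is a textbook target of the microRNA miR-196, whose genes sit inside the Hox clusters. It lies at chr15:102990607-102994111 on the plus strand (mm10) and shares no exon with a neighbour. Hoxc8 had 101, 60 and 59 counts in wild-type skin and 175, 242 and 310 in Tsk. Scaled, it stood at 5.62, 3.89 and 3.67 CPM in wild type (4.39 ± 1.07, SD, n = 3) and at 9.07, 11.3 and 14.6 in Tsk (11.7 ± 2.77). All 3 Tsk libraries lay above all 3 wild-type libraries, with wild-type replicate 1 the highest of its group and Tsk replicate 6 the highest of all.

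The log2 fold change of Hoxc8 was 1.404 ± 0.24 (SE, edgeR adjusted p = 0.0200). DESeq2 gave 1.41 (adjusted p = 2.56e-05). The call was lost without wild-type replicate 2 (1.33, adjusted p = 0.0633), without wild-type replicate 3 (1.30, 0.102), without Tsk replicate 6 (1.21, 0.0536) and with a skeletal muscle score added to the fit (0.9985, 0.150), while the direction held in all 16 alternatives. The skeletal muscle sum was lower and the fibroblast sum higher in every Tsk library than in any wild-type library. Muscle content and genotype thus went together, and the fit with the muscle score cannot tell them apart. The part of muscle or fibroblast content in the rise of Hoxc8 was not tested.

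**Figure D2:**
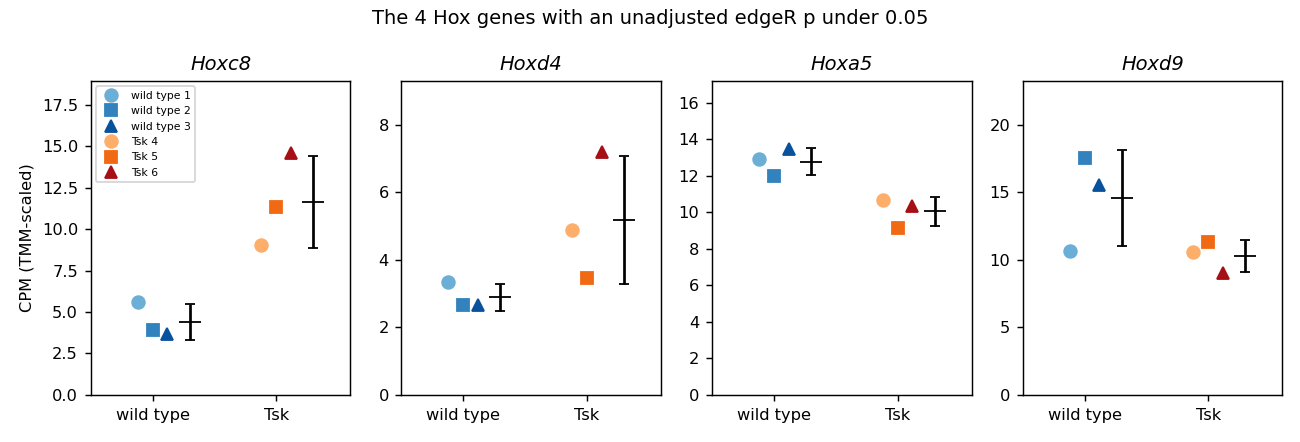
CPM (TMM-scaled) of the 4 Hox genes with an unadjusted edgeR p under 0.05, 1 point per library, with the group mean and SD beside the points. Hoxc8 and Hoxd4 are higher in all 3 Tsk libraries, Hoxa5 is lower in all 3, and for Hoxd9 wild-type replicate 1 lies among the Tsk libraries.

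The miR-196 sequences are shown because Hoxc8 carries matches to their seed. Capitals mark the seed, bases 2 to 8, in the mature RNAs (RefSeq, GRCm38.p6) and the 7 bases complementary to it in the 3′ untranslated region of Hoxc8 (GENCODE M21), all written 5′ to 3′.
miR-196a-5p: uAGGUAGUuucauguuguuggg
miR-196b-5p: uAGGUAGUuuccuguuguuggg
Hoxc8 site, 135 bases after the stop codon: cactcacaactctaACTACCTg
Hoxc8 site, 892 bases after the stop codon: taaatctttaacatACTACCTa

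Both miRNAs have the same seed. The letters ACTACCT, searched on the transcript strand, were found in the 3′ untranslated region of 9 of the 38 Hox genes, Hoxa5, Hoxa7 and Hoxc8 among them, and in 6.10% of 20964 genes, with no correction for the length of the region. A match is a description and not a measured site of action. The mature miRNAs were not measured. The row of the Mir196a-1 hairpin, in the HoxB cluster between Hoxb13 and Hoxb9, had 1, 1 and 0 counts in wild-type skin and 0, 0 and 11 in Tsk, so its counts came mainly from Tsk replicate 6. Mir196a-2, in the HoxC cluster between Hoxc10 and Hoxc9, had 0 counts in every library.

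Hoxa5, which acts in lung and in the neck-to-trunk skeleton, was the central gene with an unadjusted p under 0.05 on the lower side. It stood at 12.9, 11.99 and 13.5 CPM in wild type (12.8 ± 0.753) and at 10.7, 9.16 and 10.4 in Tsk (10.1 ± 0.797, SD, n = 3 each). The groups did not overlap. The log2 fold change was -0.35 ± 0.14, which did not pass the test over all genes (unadjusted p = 0.0345, edgeR adjusted p = 0.209). With library totals in place of TMM it was -0.08.

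Hoxd8, the most abundant Hox gene per kilobase, stood at 25.1, 44.0 and 40.3 CPM in wild-type skin and at 31.1, 34.3 and 25.4 in Tsk. Wild-type replicate 1 was the lowest of all 6, and the groups overlapped. Its log2 fold change was -0.27 ± 0.21 (edgeR adjusted p = 0.537), and it was 0.03 with library totals and 0.26 with the skeletal muscle score. The skeletal muscle sum had the same lowest wild-type library, replicate 1, and its part in the level of Hoxd8 was not tested.

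Hoxc6, the neighbour of Hoxc8, stood at 11.9, 8.68 and 11.7 CPM in wild-type skin and at 11.7, 11.1 and 20.5 in Tsk. Tsk replicate 6 was 1.75 times the median of the other 5 libraries, and the other Tsk libraries lay within the wild-type range (0.43 ± 0.25, edgeR adjusted p = 0.395, and 0.09 without Tsk replicate 6). Hoxc5 was at 6.62, 6.87 and 9.26 CPM in wild-type skin and at 8.76, 7.81 and 8.56 in Tsk, with overlap (0.14 ± 0.18, adjusted p = 0.709). Hoxa7 was at 14.9, 10.5 and 10.8 CPM in wild-type skin and at 10.01, 6.83 and 13.1 in Tsk, also with overlap (-0.28 ± 0.25, adjusted p = 0.593).

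Hoxc4, Hoxc5 and Hoxc6, on the anterior side of Hoxc8 in the same cluster, thus did not pass the test. Hoxa6, Hoxb5, Hoxb6 and Hoxb7 had overlapping groups and log2 fold changes from 0.03 (Hoxa6) to 0.30 (Hoxb6). Hoxb8, the paralogue of Hoxc8 in the HoxB cluster, stood at 4.23, 1.75 and 1.12 CPM in wild-type skin and at 1.76, 1.92 and 5.41 in Tsk. It was high in wild-type replicate 1 and in Tsk replicate 6 and low in the other 4 libraries (0.35 ± 0.57, edgeR adjusted p = 0.790, and -0.37 without Tsk replicate 6).

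**Figure D3:**
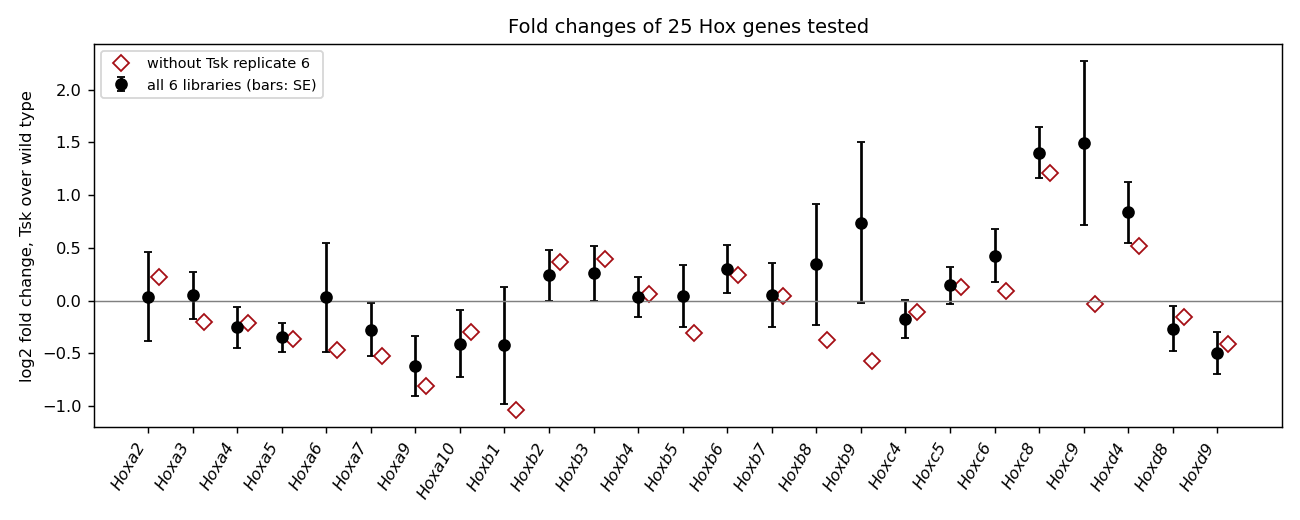
Log2 fold change, Tsk over wild type, of 25 Hox genes tested, with all 6 libraries (filled points, bars are SE) and without Tsk replicate 6 (open diamonds). Hoxc8 stays high at 1.21 without that library, whereas Hoxc9 moves from 1.49 to -0.03 and Hoxb9 from 0.74 to -0.57.

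Among the posterior genes, none of 5 tested was called by edgeR, DESeq2 or limma-voom, and 1, Hoxd9, had an unadjusted p under 0.05. Hoxd9 stood at 10.7, 17.6 and 15.6 CPM in wild-type skin and at 10.6, 11.4 and 9.04 in Tsk. Wild-type replicate 1 lay among the Tsk libraries. The log2 fold change was -0.50 ± 0.20 (unadjusted p = 0.0353, edgeR adjusted p = 0.212), and without wild-type replicate 1 it was -0.66 (adjusted p = 0.0483). It shrank to -0.20 with library totals (adjusted p = 0.531) and to -0.05 with the skeletal muscle score (adjusted p = 0.937). Hoxa9 was at 5.06, 8.04 and 7.45 CPM in wild-type skin and at 4.98, 2.85 and 5.51 in Tsk, with overlap through wild-type replicate 1 (-0.62 ± 0.28, adjusted p = 0.265). Hoxa10 likewise overlapped (-0.41 ± 0.32, adjusted p = 0.525).

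Hoxc10, a gene of the lumbar and hindlimb level, was counted in a single library. It had 0 counts in wild-type replicates 1 to 3 and in Tsk replicates 4 and 5, and 170 counts in Tsk replicate 6. That is 8.0 CPM there, with an exact 95% Poisson interval of 6.84 to 9.30 that covers counting error only. Against the 3-count limit of each other library, the 8.0 CPM of Tsk replicate 6 was 41.1-fold to 57.0-fold higher. These folds do not allow for the counting error of the 170 counts. With 1 library there is no test, and the default expression filter left Hoxc10 out. It was the only gene of the 55291 rows with at least 100 counts in 1 library and 0 in the other 5, a criterion set after the Hoxc10 values had been seen. Hoxc10 (chr15:102966796-102971893, plus strand, mm10) shares 166 bases of exon with Hoxc5, whose own level in Tsk replicate 6 was 1.10 times the median of the others.

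The homeobox of Hoxc10 is shown beside those of its paralogues and its neighbour, since reads from a gene of similar sequence could be assigned to the wrong gene. Each is 180 bases of coding sequence (GENCODE M21), and capitals mark the bases that differ from Hoxc10.
Hoxc10: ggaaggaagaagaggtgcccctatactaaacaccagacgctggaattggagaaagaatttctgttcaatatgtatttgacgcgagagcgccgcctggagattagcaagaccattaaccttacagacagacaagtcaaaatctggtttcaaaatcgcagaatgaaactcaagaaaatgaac
Hoxa10: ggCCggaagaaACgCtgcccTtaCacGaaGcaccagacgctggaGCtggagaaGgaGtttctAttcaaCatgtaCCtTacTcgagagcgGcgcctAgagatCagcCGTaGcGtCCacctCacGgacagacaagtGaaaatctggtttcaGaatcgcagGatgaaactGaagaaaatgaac
Hoxd10: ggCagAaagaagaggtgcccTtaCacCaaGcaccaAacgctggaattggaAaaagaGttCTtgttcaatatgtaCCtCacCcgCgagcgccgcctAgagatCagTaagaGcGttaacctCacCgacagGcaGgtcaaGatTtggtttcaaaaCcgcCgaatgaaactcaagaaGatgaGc
Hoxc9: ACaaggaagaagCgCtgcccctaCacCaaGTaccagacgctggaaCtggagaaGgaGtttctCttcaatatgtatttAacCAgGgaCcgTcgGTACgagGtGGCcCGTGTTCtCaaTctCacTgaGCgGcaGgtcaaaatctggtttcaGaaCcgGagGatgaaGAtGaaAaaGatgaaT

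The homeobox of Hoxa10 differs from that of Hoxc10 at 35 bases (80.6% identity), that of Hoxd10 at 31 (82.8%) and that of Hoxc9 at 51 (71.7%). The longest run of identical bases was 14 with Hoxa10, 16 with Hoxd10 and 17 with Hoxc9. In Tsk replicate 6, Hoxa10 was at 0.626 times the median of the other libraries, Hoxd10 at 1.77 times it with 7 counts, and Hoxc9 at 7.52 times it. Whether reads were assigned to the wrong copy was not tested.

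Other posterior and central genes were high in the same library. Hoxc9, the next gene of the cluster, stood at 2.12, 1.30 and 1.06 CPM in wild-type skin and at 1.14, 1.78 and 9.74 in Tsk. Tsk replicate 6 was far above the other 5, which lay together. The log2 fold change of 1.49 ± 0.77 did not pass the test (edgeR adjusted p = 0.331) and was -0.03 without that library. Hoxb9, its paralogue in the HoxB cluster, stood at 1.61, 0.713 and 0.373 CPM in wild-type skin and at 0.570, 0.655 and 3.34 in Tsk. Tsk replicate 6 was 5.10 times the median of the others, and the log2 fold change of 0.74 ± 0.77 (adjusted p = 0.647) was -0.57 without it.

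The excess of Tsk replicate 6 over the median of the others was 3.07-fold for Hoxb8, 2.60-fold for Hoxc8, 2.16-fold for Hoxd4 and 1.75-fold for Hoxc6. For Hoxc8 and Hoxd4, whose groups did not overlap, that median was a wild-type value. Tsk replicate 6 was 1.29 times the next highest library, also a Tsk library, for Hoxc8 and 1.48 times it for Hoxd4. Anterior genes were high there too, at 2.85-fold for Hoxd3 and 1.945-fold for Hoxb1, as were the central Hoxa6 (1.89-fold) and Hoxb5 (1.72-fold). Hoxd3, with 53 counts in all, was also high in wild-type replicate 3 (3.32-fold). Hoxb1, with 54 counts in all, was also at 1.84-fold in wild-type replicate 1 and at 1.96-fold in wild-type replicate 2. Hoxa6 was at 1.89-fold in wild-type replicate 1 too, so for these genes the excess was not particular to Tsk replicate 6. The tested posterior genes of HoxA and HoxD did not show an excess in Tsk replicate 6 of that size. They were at 1.09-fold for Hoxa9, 0.626-fold for Hoxa10 and 0.795-fold for Hoxd9. Within HoxC, the posterior genes summed to 17.8 CPM in Tsk replicate 6 and to 1.12 to 2.23 CPM in the other 5 libraries, while Hoxc4, at the opposite end, was 0.853 times the median. Of 29 Hox genes with at least 15 counts in all, 3 were at least 2-fold above the next library in Tsk replicate 6 (Hoxb9, Hoxc9 and Hoxc10, 10.3%), against 0.906% of 24848 genes with that many counts. That measure was chosen after the values of Hoxc10 had been seen. Hoxc10 was among the 29 only through its counts in Tsk replicate 6, so the count filter fixed in advance that it met the measure there. The contrast of the 2 shares is thus a description and no support for an excess. In each of the other 5 libraries 0 Hox genes met it, against 0.608, 0.415 and 0.318% of all genes in wild-type replicates 1, 2 and 3 and 0.233 and 1.11% in Tsk replicates 4 and 5. Tsk replicate 6 was the highest library for 9 of the 26 Hox genes tested, against 22.9% of all genes.

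**Figure D4:**
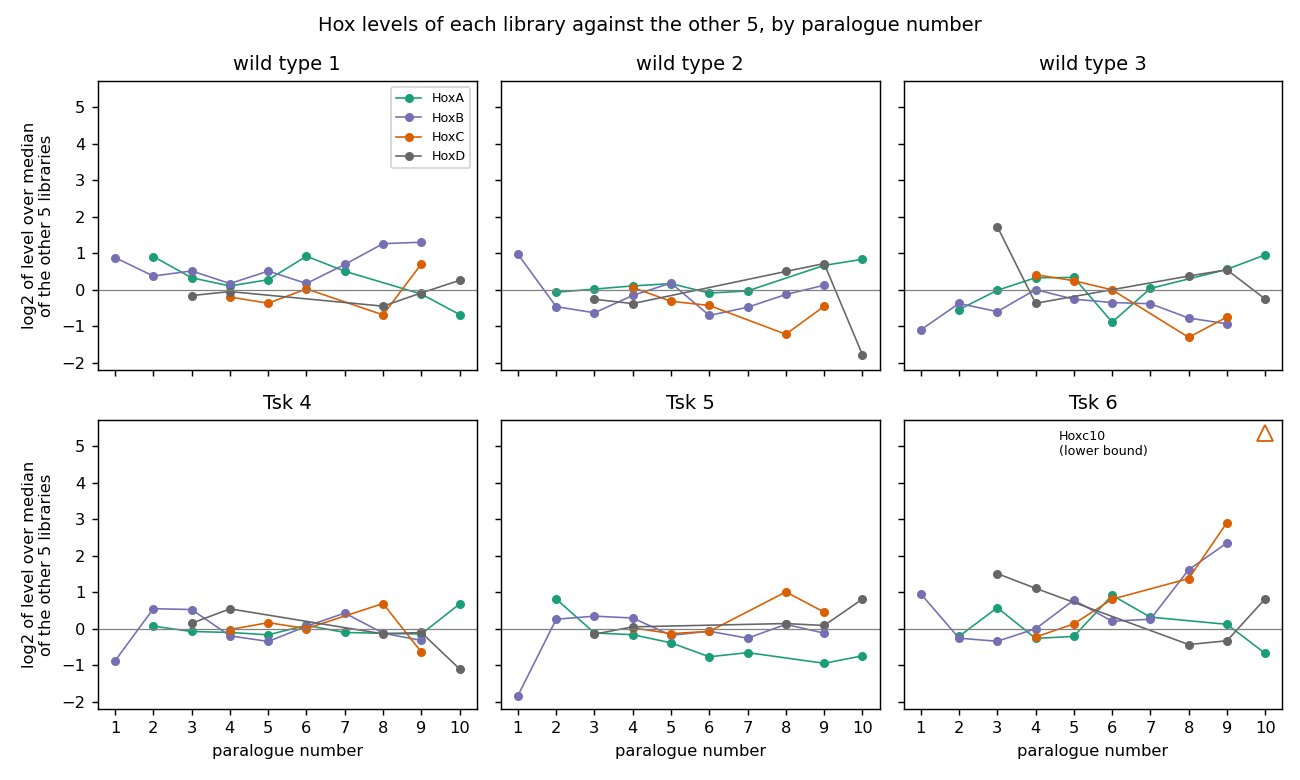
Level of the Hox genes in each library relative to the median of the other 5, on a log2 scale, by cluster and paralogue number. In Tsk replicate 6 the values climb from Hoxc6 (1.75-fold) through Hoxc8 (2.60-fold) to Hoxc9 (7.52-fold), and wild-type replicate 1 is high for Hoxb8 and Hoxb9. Hoxc8 is also at 1.61-fold in Tsk replicate 4 and at 2.01-fold in Tsk replicate 5.

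Wild-type replicate 1 shared part of this order, at 2.40 times the median of the other libraries for Hoxb8, 2.47 for Hoxb9 and 1.63 for Hoxc9, with 0 counts of Hoxc10. Both Hoxb9 and Hoxb8 were thus high in 1 library of each group. Tsk replicate 6 also had the highest fibroblast sum (4.26% of the scaled total) and the lowest skeletal muscle sum (13.6%), and wild-type replicate 1 had the lowest skeletal muscle sum of its group (17.4%). Other marker lists were at an extreme in Tsk replicate 6 too. Its macrophage (0.0988%) and Schwann cell (0.0505%) sums were the highest of the 6 libraries, and its keratinocyte sum (0.432%) was the lowest. With the skeletal muscle score in the fit, the log2 fold change of Hoxb8 moved from 0.35 to -0.63, that of Hoxb9 from 0.74 to -0.42 and that of Hoxc9 from 1.49 to 0.42. The part of tissue content, and of the position from which each piece was cut, in these values was not tested.

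**Figure D5:**
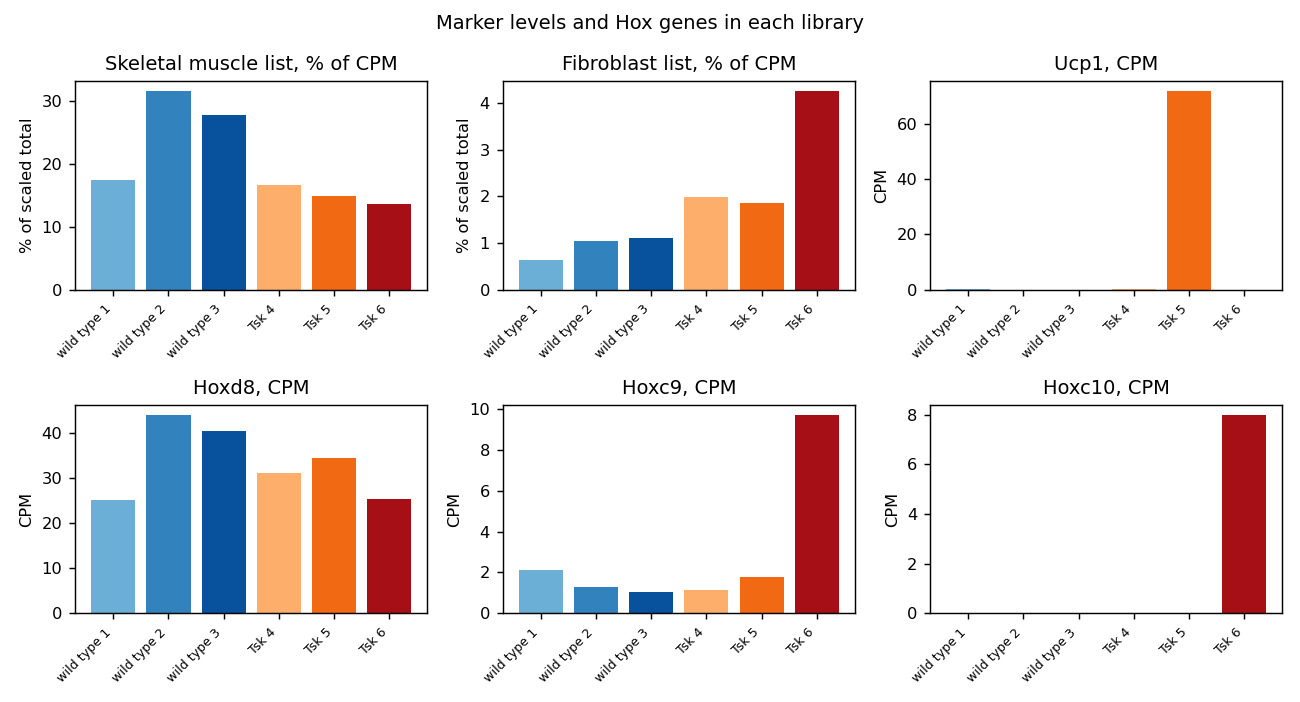
Summed skeletal muscle and fibroblast markers (percent of the scaled total), and Ucp1, Hoxd8, Hoxc9 and Hoxc10 (CPM), in each library. Tsk replicate 6 has the highest fibroblast sum, 4.26%, and the only Hoxc10 counts, and Ucp1 is high in Tsk replicate 5, where Hoxc9 is at 1.78 CPM.

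The partners and regulators of Hox proteins were tested as lists. Of 9 cofactors, edgeR called none, 2 had an unadjusted p under 0.05, DESeq2 called Meis3 and limma-voom called none. Pknox2 was at 39.2 ± 9.86 CPM in wild-type skin and 25.3 ± 1.26 in Tsk (SD, n = 3 each, -0.63 ± 0.18, edgeR adjusted p = 0.0952). Meis3 was at 2.003, 2.14 and 2.98 CPM in wild-type skin and at 4.20, 4.72 and 7.15 in Tsk, without overlap (1.18 ± 0.27, edgeR adjusted p = 0.0569).

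Of 15 Polycomb genes, edgeR, DESeq2 and limma-voom called none and 2 had an unadjusted p under 0.05 in edgeR. Ezh2, the methyltransferase that marks silent Hox chromatin, was at 19.02 ± 1.58 CPM in wild-type skin and 15.5 ± 1.27 in Tsk (-0.29 ± 0.13, edgeR adjusted p = 0.256). Of 9 genes of the activating complexes, edgeR and limma-voom called none, 2 had an unadjusted p under 0.05 and DESeq2 called Men1. Men1, the subunit menin, had a log2 fold change of 0.53 ± 0.14 (edgeR adjusted p = 0.0747), and Kmt2a, the methyltransferase MLL1, one of -0.06 ± 0.14. Psip1, the chromatin reader LEDGF, was lower in all 3 Tsk libraries (-0.35 ± 0.12, unadjusted p = 0.0146, edgeR adjusted p = 0.137). Of 7 upstream regulators, 4 were tested, and edgeR, DESeq2 and limma-voom called none, with 0 at an unadjusted p under 0.05. The retinoic acid receptor Rarg was at 70.0 ± 9.78 CPM in wild-type skin and 83.9 ± 11.8 in Tsk (SD, n = 3 each).

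Of 19 noncoding genes listed for the clusters, 16 had a row and 4 were tested. None was called by edgeR, DESeq2 or limma-voom, and 0 had an unadjusted p under 0.05. Hotair, the long noncoding RNA of the posterior HoxC cluster, had 0 counts in every library, Tsk replicate 6 included, and Hottip of the posterior HoxA cluster had 1. Hoxd3os1, which overlaps Hoxd4 on the other strand, was at 3.57 ± 0.593 CPM in wild-type skin and 2.55 ± 0.719 in Tsk (-0.48 ± 0.26, edgeR adjusted p = 0.355).

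Transcription factors outside the clusters that mark position or mesenchyme in skin were also tested as a list. Of 20 tested of 25 listed, 3 rose and none fell in edgeR, with 14 at an unadjusted p under 0.05, and the median log2 fold change was 0.64. DESeq2 called 5 higher and 1, Tbx15, lower. Twist1 rose by 1.65 ± 0.29 (edgeR adjusted p = 0.0208), from 2.67 ± 0.536 to 8.41 ± 2.94 CPM. Tbx18 rose by 1.20 ± 0.20 (adjusted p = 0.0191) and Prrx1, a factor of dermal mesenchyme, by 0.73 ± 0.14 (adjusted p = 0.0295). Tbx15, the highest of the list in CPM and a factor of dorsal dermis and of muscle, stood at 120.5, 244.5 and 217.9 CPM in wild-type skin and at 119.2, 104.5 and 92.0 in Tsk, without overlap (-0.88 ± 0.25, adjusted p = 0.0974). With the skeletal muscle score in the fit 0 of the 20 were called, as without wild-type replicate 2 or wild-type replicate 3, while 2 were called without Tsk replicate 6, 1 without Tsk replicate 5 and 7 with library totals. No difference between these factors and the Hox genes was tested.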

How the data were processed

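RNA was measured in dorsal skin of 3 wild-type and 3 Tsk libraries, made with a stranded kit after ribosomal RNA depletion, per the labels' protocols. The submitters' processing notes name mm10, STAR, Partek 7.0 and bcl2fastq 2.19.1.403. How reads were counted, and with which strand setting, is not given in the sources used here. Each column is 1 library. The gene table holds expected counts as deposited, with 34.8 to 37.3% of a library's values fractional, and they were rounded before testing. The authors also deposited CPM values, which served only for 2 alternatives (pseudocounts 0.5 and 0.1). Depth was 17561453 to 19219814 counts per library, and counting intervals cover counting error only.

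Groups came from the labels. The test was the edgeR 4.0.16 quasi-likelihood F-test in R 4.3.3 (TMM, robust dispersions, default filter with a minimum count of 10 and a minimum total of 15), with Benjamini-Hochberg adjustment over 19971 genes and a threshold of 0.05. An SE is the log2 fold change divided by the square root of F. On data simulated from these libraries (19617 genes), it recovered 49% of 2-fold and 92% of 4-fold changes, with 6.62% of calls false. DESeq2 1.42.0 and limma 3.58.1 (voom and trend) were alternatives, with 16 alternatives in all. The test was also run with library sizes kept at their full totals and with dispersions that were not robust, and these runs gave the same calls among the Hox genes.

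Full values were given for Hox genes past either p threshold, the 10 highest in CPM and the 4 of largest fold change. Others, such as Hoxa4, Hoxa9, Hoxb8 and Hoxc10, were added after their values were seen. The members and the 17 gene lists were chosen with earlier results of these data known. Exon lengths, positions and coding sequences came from GENCODE M21, and miRNA sequences from RefSeq. Some genes are not reported here.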

Additional observations from a re-analysis of the deposited data

How the results depend on the processing

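The edgeR test called 683 genes in all. That count was 1791 with library totals in place of TMM, 1157 without the filter on low counts, 1535 with DESeq2, 1916 and 1887 with limma-trend at pseudocounts of 0.5 and 0.1, and 63 with the skeletal muscle score, and it ran from 63 to 1381 when 1 library was left out (63 without wild-type replicate 3, 1381 without wild-type replicate 1, 328 without wild-type replicate 2, 402 without Tsk replicate 5 and 388 without Tsk replicate 6). Library totals moved the median log2 fold change of all genes from -0.03 to 0.25. The count of Hox genes called higher, 1, fell to 0 with the skeletal muscle score and was 0 to 1 with 1 library left out, and the count called lower was 0 to 1. Hox genes with groups that did not overlap numbered 4 higher and 0 lower with library totals, and 2 to 7 higher and 2 to 7 lower with 1 library left out. The summed posterior level differed by -1.50 CPM, Tsk minus wild type, from -7.34 without Tsk replicate 6 to 4.18 with library totals. These alternatives for sums and overlap were chosen after seeing the data. Of 208 log2 fold changes of 13 named Hox genes, 186 kept direction and call and 17 reversed. With the skeletal muscle score, Hoxa3 was at -0.23, Hoxb4 at -0.12, Hoxb9 at -0.42, Hoxc4 at 0.070 and Hoxd8 at 0.26. With library totals and limma-trend at 0.5 and 0.1, Hoxc4 was at 0.11, 0.11 and 0.12 and Hoxd8 at 0.034, 0.040 and 0.041. With 1 library left out, Hoxa3 ran from -0.20 to 0.19, Hoxb4 from -0.11 to 0.15, Hoxb9 from -0.57 to 1.51, Hoxc4 from -0.28 to 0.010 and Hoxc9 from -0.033 to 1.94, and the lowest values of Hoxa3, Hoxb9 and Hoxc9 were those without Tsk replicate 6. Hoxb4 was at -0.034 without wild-type replicate 2. The cause was not tested. No paired analysis was possible because the groups share no replicate numbers.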
